A study of Homo sapiens with 8 samples.

Results

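The AP-1 and immediate early factors are 10 genes taken by symbol from the deposited table: FOS, FOSB, FOSL1, FOSL2, JUN, JUNB, JUND, ATF3, EGR1 and IER2. Each was found in 1 of the 63677 gene rows, and all 10 passed the filter on low values (10 normalized reads or more in 4 or more libraries), as did 19559 genes in all. Poly(A) RNA was measured in LY2 cells, an endocrine-resistant derivative of the MCF-7 breast cancer cell line, that stably carried a non-targeting hairpin (shNT, 4 libraries) or a hairpin against SRC-1 (shSRC1, 4 libraries), the coactivator encoded by NCOA1. Both groups were kept in stripped serum with puromycin (500 ng/mL) and a low dose of 4-hydroxytamoxifen, the active form of tamoxifen, were steroid-depleted for 72 h and then received 4-hydroxytamoxifen at 1e-07 mol/L for 8 h, so no library shows these genes without the drug. The labels name neither the number of hairpin sequences or clones nor separate cultures, so p-values measure only how these libraries scatter, and that scatter may be technical.

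AP-1 is a family of transcription factors made of paired basic leucine zipper proteins. JUN proteins pair with each other or with FOS proteins, whereas FOS proteins need a partner, and ATF3 is a related zipper protein that can pair with JUN. Many of these genes, with the zinc finger factor EGR1 and the nuclear protein gene IER2, are immediate early genes: growth factor or stress signals switch them on within minutes through factors already in the cell, such as SRF with its ELK partners, and their short-lived mRNAs then fall. In breast cancer cells AP-1 is known as a partner of the estrogen receptor at DNA and as an output of growth factor signalling.

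The libraries held 58459196 to 67022036 reads assigned to genes, except shSRC1 replicate 2 with 33771775. Values are read counts scaled by the authors for library depth, called normalized reads here. NCOA1 fell from 4396 to 2036 normalized reads (limma adjusted p = 2.25e-07). All 10 luminal breast epithelial markers checked were present, and their summed level was 422219 to 544396 normalized reads in shNT and 654856 to 724813 in shSRC1. The 8 fibroblast markers summed to 1634 to 2189 and 1452 to 1978, and the 8 leukocyte and endothelial markers to 281 to 344 and 241 to 325, with PECAM1 at 0 in every library. The luminal sum moved with the groups, and its part in the results below was not tested. In bulk RNA, fewer cells of a type and less RNA per cell cannot be told apart. The library of shNT replicate 3 stood apart, with the lowest value of its group in 42.6% of all tested genes and in 7 of the 10 members, so differences of members that moved by over 1.5 times are also given without it.

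FOSL1, FOSB and EGR1 were lower in shSRC1, by 50.4%, 54.1% and 41.4% of their shNT means, and none of the other 7 genes passed the test. The 3 of 10 compare with 11.2% of all tested genes called lower at a limma adjusted p under 0.05. No member was called higher, where 12.0% of all tested genes were. Without adjustment JUN and JUND had p-values of 0.0217 and 0.0300, and edgeR and DESeq2 on recovered reads also called no member higher. The groups did not overlap in FOSL1, FOSB and EGR1, lower in shSRC1, as in 12.1% of all tested genes, nor in JUN, higher in shSRC1, as in 16.9%. The median log2 fold change was 0.06 over the 10 members and -0.0025 over all tested genes.

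**Figure D1:**
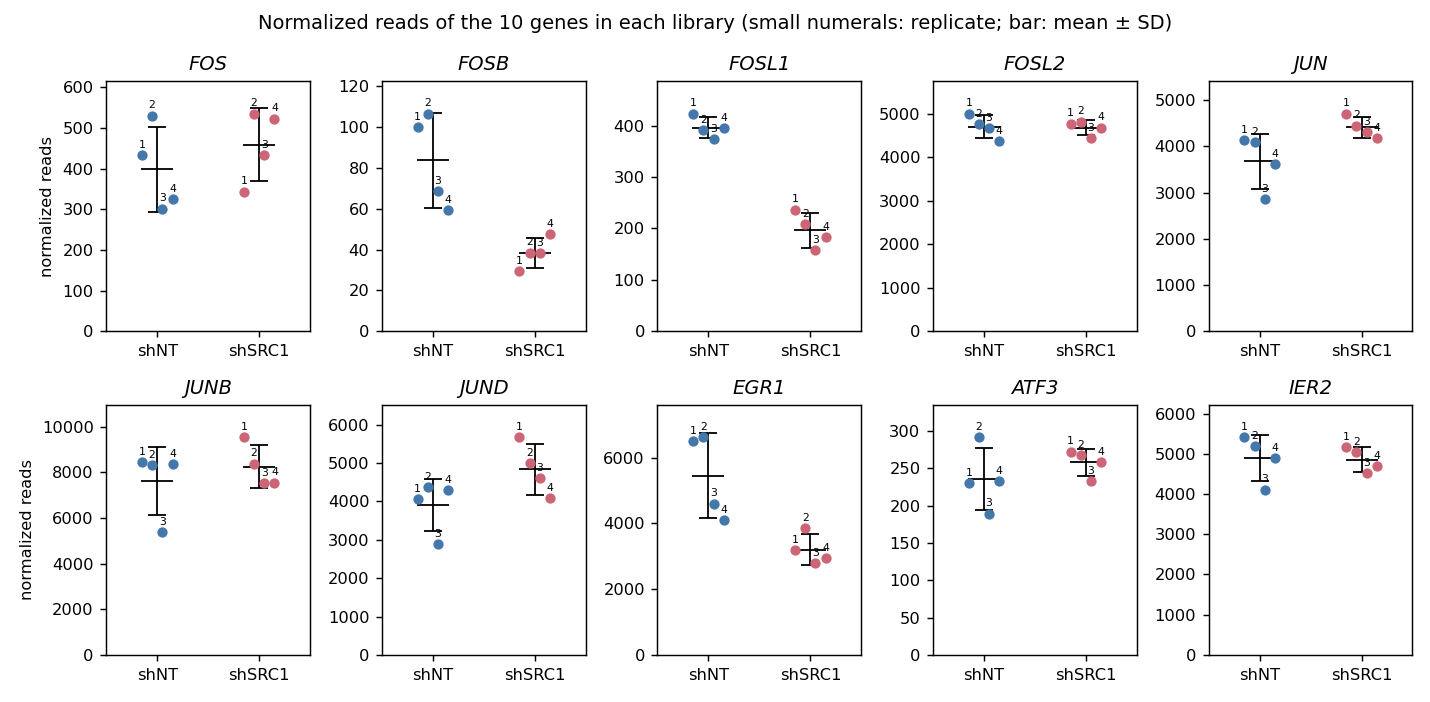
Each panel plots the normalized reads of a gene (vertical axis from 0) in the 4 shNT (blue) and 4 shSRC1 (red) libraries, with the replicate number by each point and bars for the mean and SD. The shNT and shSRC1 points are apart in FOSB, FOSL1, EGR1 and JUN and mingle in the other 6 panels.

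Among the FOS proteins, FOSL1 (FRA-1, ENSG00000175592, chromosome 11), a FOS protein that lacks the strong activation domain of FOS, had the clearest difference. It held 423, 391, 373 and 396 normalized reads in shNT replicates 1 to 4 and 236, 208, 157 and 183 in shSRC1 replicates 1 to 4. Every shSRC1 library lay below every shNT library, and the shNT libraries lay close together. FOSL1 fell by 1.02 on the log2 scale (SE 0.13, 95% confidence interval -1.31 to -0.74, limma adjusted p = 9.67e-05, lower in 4 of 4 libraries). The exact two-sided permutation p was 0.0286, below which 4 libraries against 4 cannot go. Over 20 alternative settings the log2 fold change of FOSL1 stayed between -1.12 and -0.92 and its largest adjusted p was 7.96e-04.

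FOSB (ENSG00000125740, chromosome 19), which encodes FosB and its truncated form, was the lowest of the 10 genes, on 66 to 120 reads in the shNT libraries and 22 to 52 in shSRC1. It held 100, 107, 68.7 and 59.2 normalized reads in shNT replicates 1 to 4 and 29.4, 38.5, 38.2 and 47.7 in shSRC1 replicates 1 to 4. The groups did not overlap, but shNT replicate 4 and shSRC1 replicate 4 were close, with exact 95% counting intervals of 45.8 to 75.3 and 35.6 to 62.5 that overlap. FOSB fell by 1.08 on the log2 scale (SE 0.24, 95% confidence interval -1.58 to -0.58, limma adjusted p = 0.0051, exact permutation p = 0.0286). Over the 20 alternatives its log2 fold change ran from -1.23 to -0.95, with a largest adjusted p of 0.0223.

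FOS (ENSG00000170345, chromosome 14), the prototype immediate early gene, did not pass the test. It held 434, 530, 302 and 326 normalized reads in shNT replicates 1 to 4 and 344, 535, 433 and 523 in shSRC1 replicates 1 to 4. The groups overlapped along nearly their whole range. The shSRC1 mean was higher by 0.22 on the log2 scale, with a 95% confidence interval from -0.17 to 0.61 (SE 0.18, limma adjusted p = 0.400). Single libraries moved it by over 1.5 times: leaving out shNT replicate 3 gave 0.10, and leaving out shNT replicate 4 or shSRC1 replicate 2 gave 0.14 in each case. Leaving out shNT replicate 2 gave 0.37, and leaving out shSRC1 replicate 1 gave 0.35. With shNT replicate 3 and shSRC1 replicate 2 both left out it was 0.02. With each library corrected for GC content and transcript length it was 0.13. FOSL2 (FRA-2) was the steadiest member, with 5007, 4774, 4683 and 4377 normalized reads in shNT and 4778, 4823, 4447 and 4686 in shSRC1, replicates 1 to 4. The difference was -0.01 on the log2 scale, with a 95% confidence interval from -0.17 to 0.15 (limma adjusted p = 0.956). The difference in response between members was not tested.

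The 250 bases before the annotated starts of FOSB and FOS are shown because FOSB fell and FOS did not pass the test, while both windows carry a TATA box. They are RefSeq sequences of GRCh38.p14, plus strand, at chr19:45467746-45467995 and chr14:75278578-75278827, with TATAAA in capitals; the table itself was made on GRCh37.
FOSB: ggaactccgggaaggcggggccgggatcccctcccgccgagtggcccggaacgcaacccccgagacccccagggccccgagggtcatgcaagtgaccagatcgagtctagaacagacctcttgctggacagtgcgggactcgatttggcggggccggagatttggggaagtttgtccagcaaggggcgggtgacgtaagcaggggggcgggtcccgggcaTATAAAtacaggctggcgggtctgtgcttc
FOS: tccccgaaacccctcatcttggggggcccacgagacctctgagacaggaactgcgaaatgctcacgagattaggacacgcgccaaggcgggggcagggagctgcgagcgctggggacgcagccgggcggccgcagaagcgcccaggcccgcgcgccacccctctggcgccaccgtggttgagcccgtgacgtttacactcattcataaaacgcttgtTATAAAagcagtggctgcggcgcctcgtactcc
TATAAA, searched on both strands, lies from -30 to -25 in FOSB and from -33 to -28 in FOS, counted from the start site, and from -31 to -26 in JUNB and from -230 to -225 in 1 of the windows of ATF3. Of 35116 RefSeq windows of 300 bases (250 before to 50 after the start), 11.5% hold it. A match is a run of letters and no evidence of use. FOSL1 had no RefSeq window, so it was not searched for this or any other motif below.

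Counted per length, the FOS family had a different make-up in shNT and shSRC1. Levels between genes are compared as normalized reads per kilobase of exon, over the joined exons of a gene's transcripts. These lengths are 2938, 5553, 1840 and 6794 bases for FOS, FOSB, FOSL1 and FOSL2. The longest single transcripts have 2158, 3775, 1669 and 6708 bases. The shares, and which ranges overlap, can change with the length used, and no other was tried for levels. FOSL2 made up 63.0% to 68.4% of the summed FOS-family level in the shNT libraries and 70.1% to 73.7% in shSRC1. FOSL1 made up 19.1% to 21.9% in shNT and 9.56% to 13.5% in shSRC1, and FOSB 1.09% to 1.72% and 0.556% to 0.879%. FOS held 10.2% to 16.2% and 12.3% to 18.2%, ranges that overlap. The summed family level was 981 to 1133 normalized reads per kilobase in shNT and 894 to 1012 in shSRC1. These shares follow from the values above and carry no test of their own.

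The JUN genes encode the partners that FOS proteins need. JUN held 4135, 4101, 2866 and 3625 normalized reads in shNT replicates 1 to 4 and 4711, 4451, 4305 and 4185 in shSRC1 replicates 1 to 4. All shSRC1 values lay above all shNT values, with shSRC1 replicate 4 close to shNT replicates 1 and 2. JUN differed by 0.28 on the log2 scale, with a 95% confidence interval from 0.05 to 0.50 (SE 0.11), which missed the threshold (limma adjusted p = 0.0760, exact permutation p = 0.0286). JUND, the JUN protein that is made in resting cells, held 4060, 4372, 2897 and 4290 in shNT and 5671, 4995, 4606 and 4079 in shSRC1, replicates 1 to 4. JUND differed by 0.32 on the log2 scale, with a 95% confidence interval from 0.04 to 0.60 (SE 0.13, limma adjusted p = 0.0948), and shSRC1 replicate 4 lay among the shNT values.

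The calls of JUN and JUND depended on the setting. With each library corrected for GC content and transcript length, JUN and JUND had log2 fold changes of 0.25 and 0.31 and passed the threshold (limma adjusted p = 0.0457 and 0.0137). With the replicate number as a block they also passed (limma adjusted p = 0.0213 and 0.0455). Without shNT replicate 3 the log2 fold changes were 0.16 and 0.18 (limma adjusted p = 0.128 and 0.191). Spearman's rho between GC content and a library's deviation from the gene mean was 0.18, -0.09, -0.22 and -0.21 in shNT replicates 1 to 4. In shSRC1 replicates 1 to 4 it was 0.48, 0.19, -0.10 and -0.22, described over 18787 genes that share each library. The longest transcripts of JUN, JUNB and JUND have a GC content of 56.7%, 64.9% and 69.7%.

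JUNB, a JUN protein that activates more weakly than JUN at many sites, held 8456, 8301, 5373 and 8350 normalized reads in shNT and 9527, 8373, 7523 and 7544 in shSRC1, replicates 1 to 4. The groups overlapped, and shNT replicate 3 lay far below the rest. JUNB differed by 0.13 on the log2 scale, with a 95% confidence interval from -0.16 to 0.43 (limma adjusted p = 0.510), and by -0.03 without that library. Per kilobase, the share of JUNB in the summed JUN-family level was slightly lower in every shSRC1 library, a description with no test. JUNB held 55.5% to 58.1% in shNT and 52.8% to 55.1% in shSRC1, JUND 27.3% to 29.2% and 29.1% to 31.7%, and JUN 12.9% to 15.2% and 13.8% to 15.7%.

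The window of JUND is shown because JUND alone, among the 9 members with a RefSeq window, holds the exact cAMP response element TGACGTCA (capitals). JUN and ATF dimers are known to bind this sequence, and variants of it were not searched. The window covers chr19:18281623-18281872 of GRCh38.p14 and is written 5′ to 3′ on the minus strand.
JUND: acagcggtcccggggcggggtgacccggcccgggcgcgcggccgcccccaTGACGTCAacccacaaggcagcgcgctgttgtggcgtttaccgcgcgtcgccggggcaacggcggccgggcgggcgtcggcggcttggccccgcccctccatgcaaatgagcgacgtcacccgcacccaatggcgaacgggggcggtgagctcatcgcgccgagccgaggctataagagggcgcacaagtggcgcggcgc
TGACGTCA reads the same on both strands, lies from -200 to -193 here and occurs in 1.85% of all windows. Among the same 9 members, which leave out FOSL1, the AP-1 site TGANTCA was found in FOSL2 alone, from 4 to 10 after the start. It was searched on both strands and occurs in 7.71% of all windows.

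**Figure D2:**
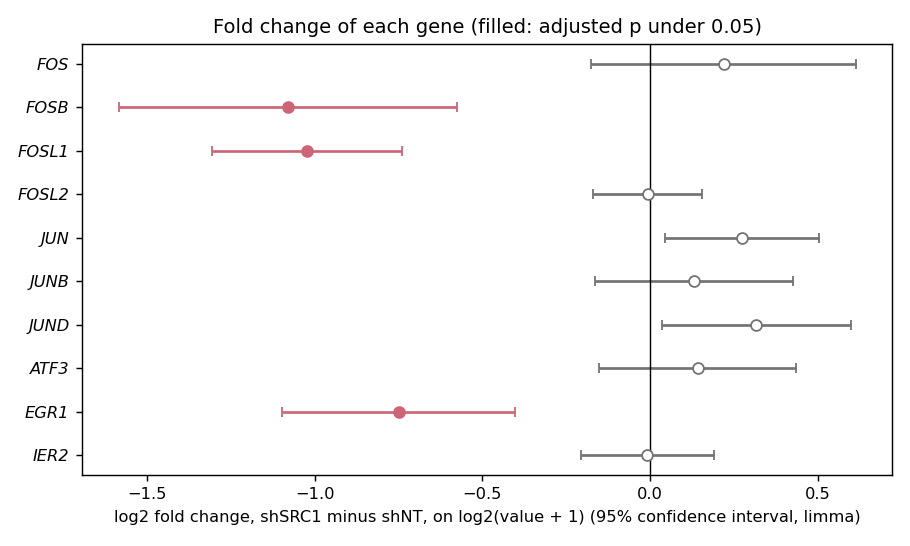
Points give the log2 fold change of each gene, shSRC1 minus shNT (horizontal axis, log2(value + 1) scale), with 95% confidence intervals from limma; filled points passed an adjusted p of 0.05. FOSB, FOSL1 and EGR1 lie at -1.08, -1.02 and -0.75, and JUN and JUND at 0.28 and 0.32.

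EGR1 (ENSG00000120738, chromosome 5), a zinc finger factor that is induced through SRF and binds GC-rich promoters, held 6516, 6621, 4604 and 4093 normalized reads in shNT replicates 1 to 4. In shSRC1 replicates 1 to 4 it held 3199, 3863, 2788 and 2943. The groups did not overlap, although shNT replicate 4 and shSRC1 replicate 2 were close. EGR1 fell by 0.75 on the log2 scale (SE 0.16, 95% confidence interval -1.10 to -0.40, limma adjusted p = 0.0065, exact permutation p = 0.0286). Over the 20 alternatives its log2 fold change ran from -0.92 to -0.65, and its largest adjusted p was 0.0256, without shNT replicate 3.

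The window of EGR1 is shown for its CArG boxes, the sites that SRF is known to bind, which are in capitals. It covers chr5:138465229-138465478 of GRCh38.p14 on the plus strand.
EGR1: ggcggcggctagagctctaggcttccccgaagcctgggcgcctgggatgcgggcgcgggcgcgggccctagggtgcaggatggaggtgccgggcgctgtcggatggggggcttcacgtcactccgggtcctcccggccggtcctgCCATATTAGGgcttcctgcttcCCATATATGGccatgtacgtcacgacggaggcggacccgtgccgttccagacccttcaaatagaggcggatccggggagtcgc
The CArG boxes lie from -105 to -96 and from -83 to -74. No other member with a window held an exact match inside its 300 bases, and sites farther from the start were not searched. Of all windows, 1.29% hold at least 1 CArG box and 0.0313% at least 2. The EGR1 motif GCGTGGGCG, searched on both strands, was found in no member's window and in 0.795% of all windows.

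ATF3, which is induced by stress signals and mostly represses, held 230, 291, 189 and 232 normalized reads in shNT and 272, 268, 233 and 258 in shSRC1, replicates 1 to 4. The groups overlapped, and ATF3 differed by 0.14 on the log2 scale, with a 95% confidence interval from -0.15 to 0.44 (limma adjusted p = 0.472). Leaving out shNT replicate 3 moved the ATF3 difference to 0.04, and leaving out shNT replicate 2 moved it to 0.25. The correction for GC content and length moved it to 0.05, and leaving out shNT replicate 3 and shSRC1 replicate 2 together to 0.02. IER2, whose short-lived product acts in the nucleus, held 5407, 5193, 4111 and 4883 in shNT and 5171, 5035, 4513 and 4695 in shSRC1. It differed by -0.01 on the log2 scale, with a 95% confidence interval from -0.21 to 0.19 (limma adjusted p = 0.961), and by -0.09 without shNT replicate 3. An annotated antisense gene overlaps 24.6% of the exon bases of IER2, and the use of strand in counting is not stated, so reads of the pair cannot be told apart and the IER2 values are uncertain. No other member shares exon bases with another gene in GENCODE 29.

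Levels per kilobase put the JUN genes, EGR1 and IER2 above the FOS genes and ATF3. In shNT the means were 4187 normalized reads per kilobase for JUNB, 2096 for JUND, 1739 for EGR1, 1595 for IER2, 1040 for JUN and 693 for FOSL2. FOSL1 followed at 215, FOS at 135, ATF3 at 93.0 and FOSB at 15.1. The library ranges of JUND and EGR1, of EGR1 and IER2, and of FOS and ATF3 overlapped, and those of the other neighbours did not. Whether FOS and FOSL1 overlap, in shNT and in shSRC1, depends on the exon length used. Before scaling to length their shNT means were 398 and 396 normalized reads. In shSRC1 EGR1 stood at 1019, below IER2 at 1580 and next to JUN at 1247, whose range it overlapped. FOSL1 stood at 107 there, below FOS at 156 and next to ATF3 at 102, with ranges that overlapped on both sides.

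**Figure D3:**
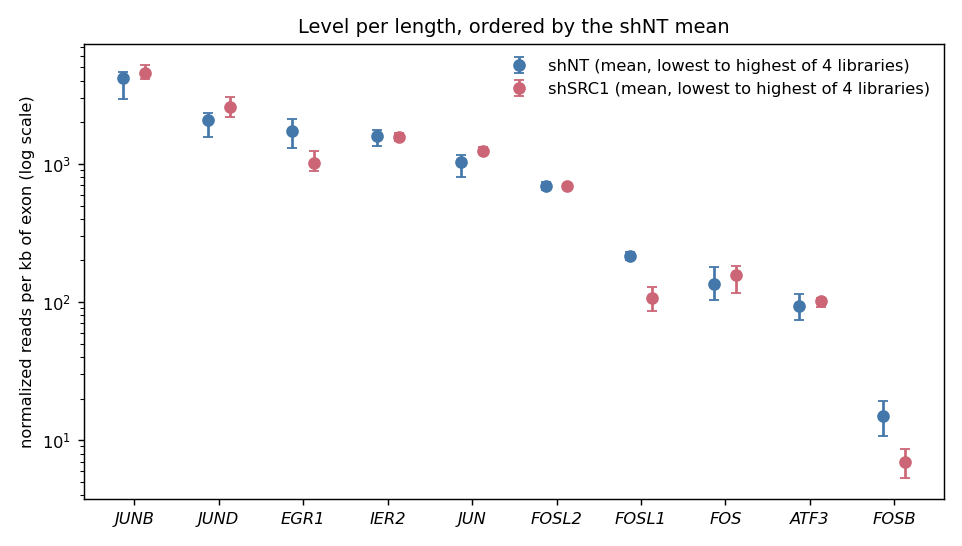
Points give the mean normalized reads per kilobase of exon (log axis) of each gene in shNT (blue) and shSRC1 (red), and bars run from the lowest to the highest of 4 libraries. Genes are ordered by the shNT mean, from JUNB at 4187 to FOSB at 15.1, and the bars of shNT and shSRC1 do not overlap in FOSL1, EGR1, FOSB and, narrowly, JUN.

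Inside the groups, the members varied by library. In shNT replicate 3 all 10 members lay below their group mean, by 0.48 on the log2 scale for JUNB, 0.41 for JUND and 0.36 for FOS, but only by 0.01 for FOSL2. In shNT replicates 1 and 2, 6 members (FOS, FOSB, FOSL2, JUN, EGR1 and IER2) were higher than in replicates 3 and 4, a pattern shown by 14.9% of all tested genes. In shSRC1, replicate 1 was highest in FOSL1, JUN, JUNB, JUND, ATF3 and IER2 but lowest in FOS and FOSB, at -0.39 and -0.35 from the group mean. Replicate 3 was lowest in FOSL1, FOSL2, JUNB, EGR1, ATF3 and IER2. Of all tested genes, 28.0% were lowest of their group in shSRC1 replicate 1, 21.7% in shSRC1 replicate 3 and 42.6% in shNT replicate 3.

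**Figure D4:**
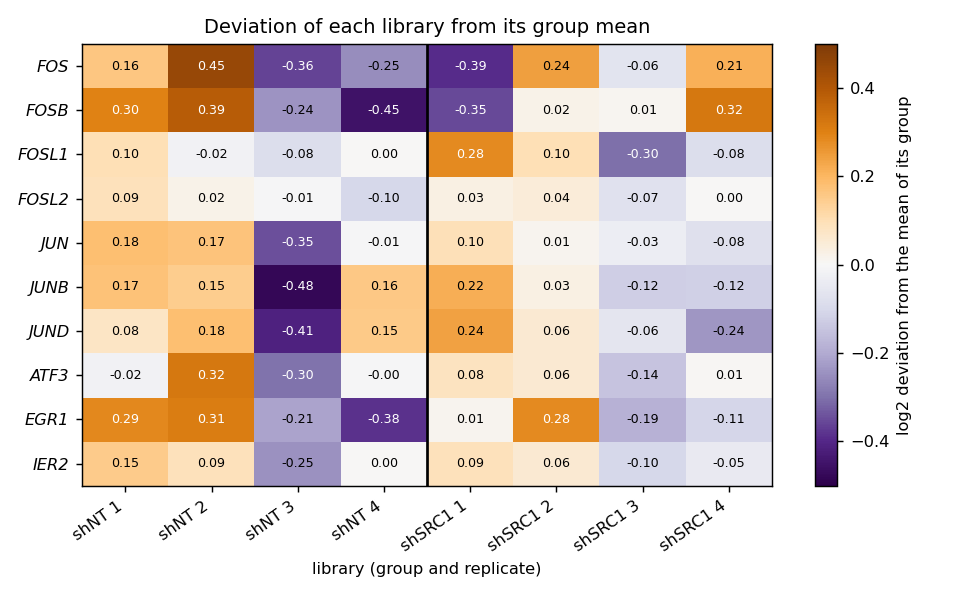
Each cell gives the log2 deviation of a gene (rows) in a library (columns) from the mean of its own group, orange above and purple below. The column of shNT replicate 3 is below 0 in every row, and shSRC1 replicate 1 holds the lowest shSRC1 values of FOS and FOSB at -0.39 and -0.35.

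Genes next to the called members on the chromosome had medians near 0, by gene order in GENCODE 29. Among the 20 nearest tested protein-coding genes the median log2 fold change was 0.13 around FOSL1 (chromosome 11), -0.03 around FOSB (chromosome 19) and 0.07 around EGR1 (chromosome 5). Of these 20, 0 were called lower and 2 higher around FOSL1, 3 lower and 1 higher around FOSB, and 2 lower and 3 higher around EGR1, where 11.2% of all tested genes were called lower and 12.0% higher. Around FOS, on chromosome 14, the median was 0.25, the farthest from 0 of the 10 members, and 6 of 20 neighbours rose and 0 fell. Around FOSL2, JUN, JUNB, JUND, ATF3 and IER2 the medians were -0.11, -0.07, 0.15, 0.04, 0.01 and 0.09. Of the 20 neighbours of FOSL2, 4 fell and 1 rose. The genes with the closest profile over the 8 libraries were JPH2, NPC1L1 and SEPT6 for FOSL1, with root mean square differences of 0.10, 0.11 and 0.11 on the log2 scale after centring. For FOSB they were LINC00982, GJB2 and RBM24 (0.22, 0.25 and 0.25). For EGR1 they were NR4A1, NPC1L1 and SLC34A1 (0.12, 0.17 and 0.18). Among 15901 genes compared, the median difference from the profiles of FOSL1, FOSB and EGR1 was 0.58, 0.65 and 0.50. NR4A1, itself an immediate early gene for an orphan nuclear receptor, held 2949, 2481, 2319 and 1905 normalized reads in shNT replicates 1 to 4 and 1391, 1596, 1241 and 1291 in shSRC1. The groups did not overlap, as in 12.1% of all tested genes lower in shSRC1. The profile match to EGR1 by which NR4A1 was picked includes the group difference. LINC00982 did not pass the test (limma adjusted p = 0.0787), and SLC34A1 lost its call without shNT replicate 1.

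Other immediate early genes went both ways. Of 33 tested, 3 fell and 6 rose, 27.3% against 23.2% of all tested genes in either direction, with a list median of 0.03. NR4A1 fell by 0.80 on the log2 scale (SE 0.12, limma adjusted p = 3.91e-04). SOCS3, an inhibitor of JAK-STAT signalling, rose from 1188 to 3163 normalized reads (log2 fold change 1.42, SE 0.10). The phosphatase gene DUSP2 and the antiproliferative gene BTG2 rose by 0.99 and 0.85. The EGR1 relatives EGR2 and EGR3 had log2 fold changes of 0.17 and -0.11 (limma adjusted p = 0.350 and 0.676), and the immediate early genes IER3 and DUSP1 of 0.03 and 0.03.

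Of 24 other tested zipper proteins that can pair with FOS or JUN proteins or are close kin, 4 fell and 6 rose, 41.7% in all where 23.2% of all tested genes were called, with a list median of 0.06. ATF6B fell by 0.43, and its relative ATF6, a sensor of endoplasmic reticulum stress, rose by 0.35. DDIT3 (CHOP), a stress-induced partner of C/EBP proteins, rose from 523 to 802 normalized reads (0.63 on the log2 scale, SE 0.12, limma adjusted p = 0.0021), and ATF5 by 0.41. The 4 falls became 2 without shNT replicate 4 and 2 without shSRC1 replicate 2. Over all tested genes, falls also went from 2194 to 1663 and 1453 in these settings. With shNT replicate 3 and shSRC1 replicate 2 both left out, the 10 calls became 6. Calls over all tested genes then went from 4538 to 3453. The list was chosen with earlier results of these data known, so its share is a description only.

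Upstream of these genes, 2 of 27 tested kinases and SRF cofactors fell and 5 rose, 25.9% in all, close to the 23.2% of all tested genes, with a list median of 0.06. ELK3 and ELK4, ternary complex partners of SRF, fell by 0.42 and 0.48 (limma adjusted p = 0.0033 and 0.0032). ELK1, of the same group of partners, rose by 0.32 (limma adjusted p = 0.0327), a call that was lost in 4 of 20 alternatives. These left out shNT replicate 4, shSRC1 replicate 1, shSRC1 replicate 2, or the last along with shNT replicate 3. RPS6KA2, a kinase of the RSK family downstream of ERK, rose from 248 to 475 normalized reads (log2 fold change 0.93, SE 0.12). MAP2K6, an activator of p38 kinases, rose by 0.54. SRF itself did not pass (0.18 on the log2 scale, limma adjusted p = 0.205). The 5 rises became 2 without shSRC1 replicate 2 and 3 without shNT replicate 1, shNT replicate 4 or shSRC1 replicates 1, 3 or 4. Over all tested genes, rises also went from 2344 to 1713 without shSRC1 replicate 2 and to 1688 to 2028 in those other settings.

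None of 16 tested genes for EGR corepressors or for AP-1 protein and mRNA turnover passed the limma threshold, where 23.2% of all tested genes did. Without adjustment 3 had a p under 0.05, all lower, and edgeR and DESeq2 on recovered reads each called 1 lower. Without shNT replicate 3, 2 were called lower, and the list median was 0.05 with all libraries. The EGR corepressor genes NAB1 and NAB2 had log2 fold changes of -0.17 and 0.21 (limma adjusted p = 0.160 for each).

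Of 42 genes listed as AP-1 targets, 30 were tested, and 9 fell and 5 rose, 46.7% in all where 23.2% of all tested genes were called. The metalloprotease gene ADAMTS1 fell from 195 ± 17 to 66.7 ± 15.6 normalized reads (SD, n = 4; log2 fold change -1.56, limma adjusted p = 2.76e-05). PLAUR, the urokinase receptor gene, fell from 179 ± 16 to 77.5 ± 10.1 (log2 fold change -1.21, limma adjusted p = 8.02e-05). The EGFR ligand gene AREG and cyclin D1 (CCND1) rose by 0.74 and 0.45. Among the 12 targets below the filter were the protease genes MMP1, MMP2, MMP3, MMP10 and PLAU. MMP9 and MMP13 rose by 0.64 and 0.92, and MMP14 had a log2 fold change of -0.42 (limma adjusted p = 0.293). MMP9 lost its call without shNT replicate 1, shSRC1 replicate 1 or shSRC1 replicate 4. The list median was -0.04, and without shNT replicate 1 the calls were 5 lower and 4 higher. Over all tested genes, 2194 lower and 2344 higher became 1695 and 1771 without that library. The targets were listed from general knowledge, but with earlier results of these data known, so their share is a description only. No binding was measured in these cells.

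**Figure D5:**
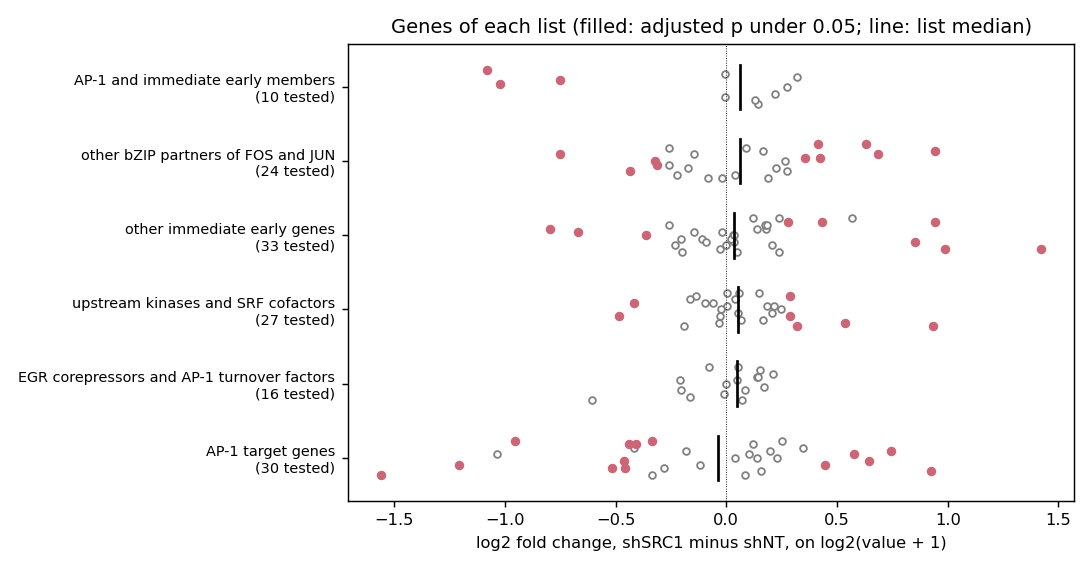
Points give the log2 fold change of each tested gene, shSRC1 minus shNT (horizontal axis, log2(value + 1) scale), by list (rows), filled where the adjusted p was under 0.05, and a line marks each list median. Filled points lie on both sides of 0 in 4 lists, only below 0 among the 10 members and nowhere in the list of 16 corepressor and turnover genes.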

How the data were processed

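The authors deposited 1 table of 63677 genes by 8 libraries, whose signal values are read counts scaled for library depth: 100% of them were whole multiples of 1 step per library, within 0.001 reads. GRCh37, DESeq2, DESeq, HTSeq 0.6.1 and TopHat2 2.0.12 are named per the submitters' processing notes, with no counting options.

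The members were found by symbol. They and the lists were chosen with earlier results of these data known. The main test was limma 3.58.1 (R 4.3.3; mean-variance trend, robust variances, no block) on log2(value + 1) over the 19559 genes that reached 10 normalized reads in 4 or more libraries, two-sided, Benjamini-Hochberg adjusted over these genes, threshold 0.05. Fold changes on this scale understate the change of low genes. The script was tested on simulated data without a GC content effect, which checks the code only. Exact permutation tests used the mean difference of log2(value + 1) over all 70 regroupings. Alternatives were edgeR 4.0.16 and DESeq2 1.42.0 on recovered reads, TMM and upper-quartile scaling, no filter or a minimum of 50, pseudocounts of 0.5 and 5, the replicate number as a block, a correction for GC content and length (splines, 18787 genes), and libraries left out. Named were all members, NCOA1, up to 4 called genes of each list by smallest adjusted p, and the 3 nearest profiles of each called member. SRF, ELK1, EGR2, EGR3, IER3, DUSP1, NAB1, NAB2, MMP1, MMP2, MMP3, MMP10, PLAU, MMP9, MMP13 and MMP14 were chosen after their values were seen. Lengths, GC content, gene order and overlaps came from GENCODE 29 (GRCh38), joined by Ensembl identifier. Of the 10 members, 9 had a RefSeq promoter window and FOSL1 had none. Counting intervals (95%, exact Poisson) cover counting error only; without molecular identifiers, PCR copies cannot be told from separate molecules.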

Additional observations from a re-analysis of the deposited data

Results flagged for a closer look

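JUNB in shNT replicate 3 stood far from the other shNT libraries. Its 5373 normalized reads lay below a nearest value of 8301, a gap that took up 0.950 of the group's whole range, above the 95% critical value of Dixon's test. This was the only such case among 20 groups of 4 values (the 10 members in shNT and in shSRC1), and chance gives about 1 in 20.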

How the results depend on the processing

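Over the 20 alternatives the members called lower were FOSL1, FOSB and EGR1 in every setting, 3 of 3. The count of members called higher was 0 and rose to 2 (JUN and JUND) with the replicate block, 2 with the GC content and length correction and 2 with both together. Among all tested genes, those called higher also rose, from 2344 of 19559 to 3290 of 19559 with the block. They were 2929 of 18787 with the correction and 3168 of 18787 with both. The block gave limma adjusted p-values of 0.0213 for JUN and 0.0455 for JUND, and both together 0.0334 and 0.0098. Leaving out each library in turn gave 0 to 1 members called higher, the 1 being JUN without shNT replicate 2 (limma adjusted p = 0.0430). Signs that turned belonged to genes near 0. When each library was left out in turn, the log2 fold change ran from -0.042 to 0.023 for FOSL2, from -0.029 to 0.19 for JUNB and from -0.089 to 0.042 for IER2, and JUNB stood at -0.039 with shNT 3 and shSRC1 2 both absent. The cause was not tested. Of all tested genes, 2194 were called lower, and 1453 to 2291 when each library was left out in turn, the fewest without shSRC1 replicate 2.

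The replicate block raised the calls over all genes from 4538 to 6398. Same-numbered libraries had correlations of 0.24, -0.01, 0.13 and 0.14 across genes. shSRC1 replicates 1, 3 and 4 correlated best with the shNT library of their own number, and shSRC1 replicate 2 did not. For shSRC1 replicate 4 the margin was small, with 0.144 for shNT replicate 4 and 0.130 for shNT replicate 2. The labels do not say that the numbers pair the libraries, so the main test used no block. An effect shared by libraries of the same number was not tested. With the GC content and length correction, 6 of the other immediate early genes were lower in place of 3. Of all tested genes, 2681 of 18787 were lower in place of 2194 of 19559. Depth limits FOSB most, with 22 reads in shSRC1 replicate 2.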
